A study of Mus musculus with 9 samples.

Results

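The 8 genes described here encode a small set of enzymes that act on acyl groups held by coenzyme A (CoA): Acnat1, Acnat2 and Baat, which pass an acyl group to an amino acid, and the acyl-CoA thioesterases Acot1, Acot2, Acot3, Acot4 and Acot12, which release the free acid. They were taken by symbol from the 23420 genes counted in mouse liver, and the set was chosen by function with earlier results of these data known: the value behind the choice was the lower Acnat2 level in high-iron than in sufficient-iron livers. All 8 had enough reads to be among the 13020 genes tested. Liver RNA came from 9 wild-type male C57BL/6 mice, 3 for each of 3 diets. From 5 weeks of age the mice ate the soy-free diet AIN-93G with 2.5 mg of iron per kg of food (low iron, mice 1, 5 and 9), 37.5 mg per kg (sufficient iron, mice 2, 6 and 10) or 1000 mg per kg (high iron, mice 4, 8 and 12) for 50 days, and livers were taken at 12 weeks. All groups shared strain, sex, genotype, base diet and age, and each library came from its own mouse.

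Bile acids made from cholesterol are activated to CoA thioesters and then joined to taurine or glycine before they are secreted into bile, and Baat, the bile acid-CoA:amino acid N-acyltransferase, catalyses that last step in hepatocytes. Acnat1 and Acnat2 are close relatives of Baat, and mouse Acnat1 is a peroxisomal enzyme that conjugates long-chain fatty acids with taurine. Type I thioesterases split acyl-CoA in different places: Acot1 in the cytosol, Acot2 in mitochondria, and Acot3 and Acot4 in peroxisomes, Acot3 on long-chain acyl-CoA and Acot4 on succinyl-CoA and other dicarboxylic acyl-CoA. Acot12 is of another structural type and hydrolyses acetyl-CoA in the cytosol. Acot1 and several of its neighbours are known targets of the fatty acid receptor PPAR-alpha in mouse liver, a nuclear receptor that binds, as a pair with RXR, repeats of the hexamer AGGTCA.

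Both sub-families lie in clusters. In the GENCODE M21 annotation Acnat1, Acnat2 and Baat are on the minus strand of chromosome 4. Acot1 to Acot4 are on the plus strand of chromosome 12, and Acot12 stands apart on chromosome 13. In RefSeq the order on chromosome 12 is Acot2, Acot1, Acot4 and Acot3, with the long non-coding RNA gene Gm40474 between Acot1 and Acot4. The coding sequences of Acnat1 and Acnat2 are 95.2% identical, and each is 62.5% (Acnat1) or 62.3% (Acnat2) identical to Baat. Within the chromosome 12 cluster, Acot1 is 85.6% identical to Acot2, 81.5% to Acot3 and 73.8% to Acot4. The longest run of bases that Acnat1 and Acnat2 share without a mismatch is 200 bases long, and it is shown because a read that falls inside it cannot be given to either gene.
Acnat1 and Acnat2 shared run: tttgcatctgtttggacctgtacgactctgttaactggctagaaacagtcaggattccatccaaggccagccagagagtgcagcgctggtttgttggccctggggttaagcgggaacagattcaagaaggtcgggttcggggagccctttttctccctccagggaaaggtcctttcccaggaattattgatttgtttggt
Of all 50-base windows of the main transcripts, 35.1% of those of Acnat1 and 31.5% of those of Acnat2 also occur in the other gene and in no further one. Windows shared with any other gene made up 33.6% in Acot1, 27.7% in Acot2, 19.5% in Acot3, 4.87% in Acot4 and 0% in Baat and Acot12. Reads that aligned to more than 1 place were set aside in the deposited files as a category of their own (27452312 to 54979674 per library), so the counts of Acnat1, Acnat2 and Acot1 to Acot4 are uncertain where copies are alike, whereas Baat and Acot12 do not carry this limit.

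Promoters, 250 bases before to 50 after the transcription start in RefSeq on build GRCm38.p6, were on hand for 7 of the 8 genes, Baat being the exception. The 4 shown are those of the gene with the lowest and of the gene with the highest high-iron level relative to sufficient iron, Acnat2 and Acot1, and those of Acot12 and Acot4, whose windows came nearest to the direct repeat AGGTCANAGGTCA. Capitals mark, in each, the 13-base window with the fewest mismatches to that repeat on either strand.
Acnat2 promoter, first listed start, minus strand, chr4:49408102-49408401: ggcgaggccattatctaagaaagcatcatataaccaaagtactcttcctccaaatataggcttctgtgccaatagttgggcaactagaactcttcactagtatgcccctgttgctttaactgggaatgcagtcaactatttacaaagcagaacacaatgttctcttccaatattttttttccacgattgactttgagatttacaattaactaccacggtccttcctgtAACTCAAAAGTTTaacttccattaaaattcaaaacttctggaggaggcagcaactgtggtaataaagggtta
Acot1 promoter, plus strand, chr12:84009252-84009551: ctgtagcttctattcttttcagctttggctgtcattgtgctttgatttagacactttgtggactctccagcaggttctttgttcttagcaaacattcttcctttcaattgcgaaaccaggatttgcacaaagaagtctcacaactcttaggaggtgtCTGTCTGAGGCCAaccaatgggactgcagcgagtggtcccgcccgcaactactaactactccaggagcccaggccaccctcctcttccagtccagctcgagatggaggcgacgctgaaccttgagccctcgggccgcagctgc
Acot4 promoter, plus strand, chr12:84038129-84038428: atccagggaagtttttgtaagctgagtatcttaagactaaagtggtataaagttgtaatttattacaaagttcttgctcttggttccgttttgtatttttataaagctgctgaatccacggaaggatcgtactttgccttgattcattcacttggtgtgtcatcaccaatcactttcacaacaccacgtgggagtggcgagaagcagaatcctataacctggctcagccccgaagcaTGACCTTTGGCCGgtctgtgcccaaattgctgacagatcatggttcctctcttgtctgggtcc
Acot12 promoter, plus strand, chr13:91741271-91741570: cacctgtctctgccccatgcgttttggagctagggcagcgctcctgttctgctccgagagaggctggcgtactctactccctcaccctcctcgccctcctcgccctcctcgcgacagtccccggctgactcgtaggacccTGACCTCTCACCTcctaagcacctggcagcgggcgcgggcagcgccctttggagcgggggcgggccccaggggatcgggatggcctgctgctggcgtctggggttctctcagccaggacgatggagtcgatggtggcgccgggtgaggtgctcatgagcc
No exact match to the repeat was found in the promoters of these genes, as in most others: 13 of 32851 promoters in the table, or 0.0396%, hold 1. The Acot12 window has 1 mismatch, and 0.554% of all promoters have a window at least that near. In Acot4 the best window has 2 mismatches (3.86% of promoters), in Acot2 and Acot3 it has 3 (24.6%), and in Acot1 and Acnat1 it has 4 (79.8%). At its first listed start Acnat2 has 5 mismatches, a bar that 99.9% of promoters clear, and at its second it has 4, as in Acot1 and Acnat1. The single hexamer AGGTCA occurs on either strand somewhere in the 300-base promoters of Acot3, Acot4 and Acot12, and in 16.3% of all promoters. These are letter matches in a short stretch and carry no statement about binding.

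The libraries held 21994132 to 33807087 reads assigned to genes. Rn45s, the ribosomal RNA precursor, took 43.7% of them in low-iron mouse 1 and 40.5% in high-iron mouse 12, against 12.5% to 23.8% in the other 7 libraries, so those 2 libraries stand apart, and differences that moved by over 1.5 times or turned without both of them are given that way too. Levels are given as CPM, reads per 1000000 reads, on library sizes scaled by the trimmed mean of M-values. Summed levels of 5 hepatocyte markers were 58000 to 66600 CPM in low-iron, 45200 to 64900 in sufficient-iron and 43000 to 53000 in high-iron livers. In bulk tissue, fewer cells of a type and less RNA per cell cannot be told apart. Genes were tested with edgeR's quasi-likelihood test over all 9 libraries, with Benjamini-Hochberg adjustment over the 13020 genes and a threshold of 0.05.

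Acnat2 showed the widest spread of the 8 genes over the libraries, with a 4.63-fold gap between the highest and the lowest. Its level was 16.5, 19.1 and 11.9 CPM in low-iron livers, 19.5, 17.6 and 12.3 CPM in sufficient-iron livers and 5.52, 4.28 and 4.22 CPM in high-iron livers. The 3 high-iron livers were all below every liver of the other diets, while low and sufficient iron overlapped. Behind these levels stood 211, 523 and 339 reads in low-iron livers, 536, 766 and 445 in sufficient-iron livers and 165, 136 and 79 in high-iron livers. The means were 15.8 ± 3.63, 16.5 ± 3.76 and 4.67 ± 0.733 CPM (SD, n = 3 mice each) for low, sufficient and high iron.

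High over sufficient iron, the contrast that put Acnat2 in the set, gave a log2 fold change of -1.81 ± 0.22 (SE), or a ratio of 0.285. This was the fifth lowest p of all genes, and Acnat2 was the only one of the 8 past the threshold in that contrast (1 of 8, beside 0.215% of all genes tested). High over low iron gave -1.75 ± 0.23, a ratio of 0.296, and there too Acnat2 was the only one of the 8 past the threshold, beside 0.507% of all genes in either direction and 0.346% with a lower level. Both contrasts rest on the 3 high-iron livers whose low Acnat2 put the gene in the set, so these figures describe that choice and are no independent test. Low over sufficient iron gave -0.06 ± 0.21 (edgeR adjusted p = 0.921). Acnat2 was past the threshold in neither contrast when high-iron mouse 4, 8 or 12 was left out, or without both Rn45s-rich libraries, where the differences were -1.75 for high over sufficient and -1.67 for high over low iron.

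Acnat1, the close copy of Acnat2, had smaller differences between diets, and the gap between the changes of both genes was not tested. It stood at 112, 123 and 92 CPM in low-iron livers, 108, 103 and 98.8 CPM in sufficient-iron livers and 87.2, 92.1 and 65.2 CPM in high-iron livers. High-iron livers were all below the sufficient-iron ones and overlapped with the low-iron ones. High over sufficient iron was -0.34 ± 0.15 on the log2 scale, high over low iron -0.42 ± 0.15 (edgeR adjusted p = 0.354) and low over sufficient iron 0.08 ± 0.15 (edgeR adjusted p = 0.834). Without high-iron mouse 12, the lowest liver, the first 2 were -0.20 and -0.27, and without both Rn45s-rich libraries -0.21 and -0.26.

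Baat, the bile acid conjugating enzyme, had the highest level of the set and a higher level than 94.8% of all tested genes. Its values were 145, 192 and 167 CPM in low-iron livers, 157, 162 and 136 CPM in sufficient-iron livers and 136, 136 and 117 CPM in high-iron livers. High-iron livers were all below the low-iron ones and overlapped with the sufficient-iron ones. The log2 differences were -0.22 ± 0.13 for high over sufficient iron, -0.37 ± 0.13 for high over low iron (edgeR adjusted p = 0.344) and 0.15 ± 0.13 for low over sufficient iron (edgeR adjusted p = 0.63), the last being 0.25 without both Rn45s-rich libraries.

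**Figure D1:**
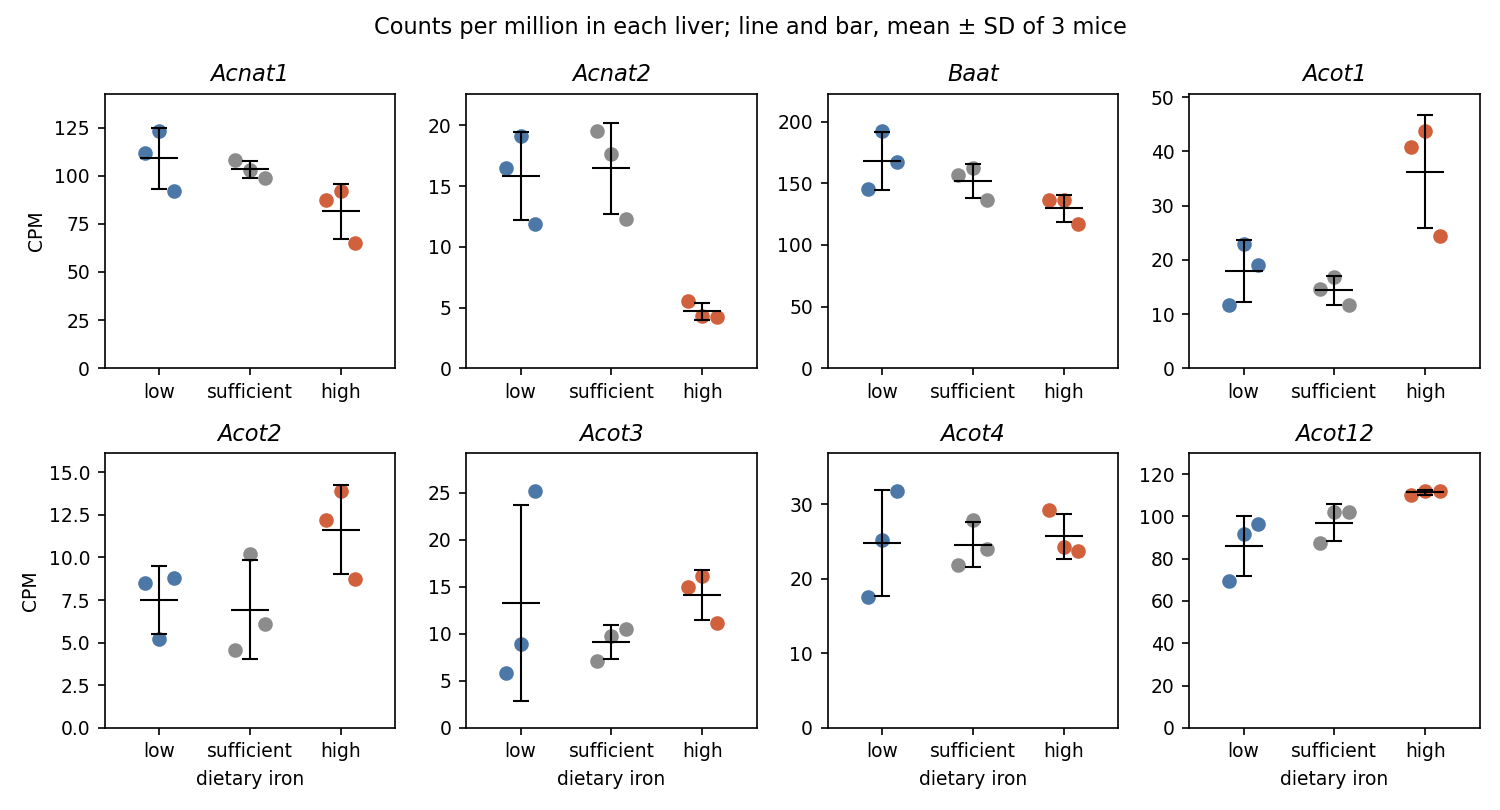
Level of each of the 8 genes in each liver (y axis, CPM, from 0) by diet (x axis, low, sufficient and high iron, left to right); points are single mice, and the line and bar are the mean ± SD of 3 mice. Acnat2 sits at 4.22 to 5.52 CPM in high-iron livers, below all other livers, and Acot1 at 24.4 to 43.7 CPM, above all others.

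As a share of the reads of Acnat1, Acnat2 and Baat together, Acnat2 made up 6.01%, 5.74% and 4.41% in low-iron livers, 6.88%, 6.25% and 4.97% in sufficient-iron livers and 2.41%, 1.84% and 2.26% in high-iron livers. The share of Acnat1 stayed between 34% and 41%, with overlap between all diets. The share of Baat was 58.5% to 62.8% in high-iron livers, above the 55% to 57.3% of sufficient-iron livers and overlapping with the 52.9% to 61.6% of low-iron livers. A share moves with the other genes of the family, and the mean CPM of Baat was lower in high-iron (130) than in sufficient-iron livers (151). Wilson 95% intervals, which cover counting error only, ran from 1.56% to 2.81% for the high-iron Acnat2 shares and from 3.97% to 7.46% for the other livers. Acnat2 reads per Acnat1 read were 0.147, 0.156 and 0.13 in low-iron livers, 0.181, 0.171 and 0.124 in sufficient-iron livers and 0.0633, 0.0464 and 0.0648 in high-iron livers. Library size cancels in these ratios, which restate the Acnat2 reads that put the gene in the set.

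Acot1, the cytosolic thioesterase for long-chain acyl-CoA, had the largest positive difference of the set. It stood at 11.7, 22.9 and 19.1 CPM in low-iron livers, 14.7, 16.8 and 11.6 CPM in sufficient-iron livers and 40.8, 43.7 and 24.4 CPM in high-iron livers. Every high-iron liver was above every other liver, although mouse 12 was nearer to low-iron mouse 5, at 22.9 CPM, than to the other high-iron mice. The means were 17.9 ± 5.69, 14.4 ± 2.58 and 36.3 ± 10.4 CPM for low, sufficient and high iron (SD, n = 3 mice each). High over sufficient iron was 1.34 ± 0.27 on the log2 scale, a ratio of 2.53, and did not pass the threshold. High over low iron was 1.01 ± 0.27 (edgeR adjusted p = 0.154) and low over sufficient iron 0.33 ± 0.27 (edgeR adjusted p = 0.593). Without both Rn45s-rich libraries, low-iron mouse 1 and high-iron mouse 12, high over sufficient iron was 1.55 and passed the threshold, while high over low iron was 1.00 (adjusted p = 0.0636) and low over sufficient iron 0.55. Low over sufficient iron was 0.54 without low-iron mouse 1, 0.12 without low-iron mouse 5 and 0.19 without sufficient-iron mouse 10.

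Acot2, the mitochondrial enzyme of the cluster and the lowest of the 8 by mean CPM over all 9 livers, although not in high-iron livers, stood at 8.5, 5.19 and 8.81 CPM in low-iron livers, 4.55, 10.2 and 6.07 CPM in sufficient-iron livers and 12.2, 13.9 and 8.76 CPM in high-iron livers. High-iron livers overlapped with both other diets. The log2 differences were 0.74 ± 0.30 for high over sufficient iron, 0.65 ± 0.31 for high over low iron (edgeR adjusted p = 0.548) and 0.09 ± 0.31 for low over sufficient iron (edgeR adjusted p = 0.907). The first was 1.13 without sufficient-iron mouse 6, the second 0.43 without low-iron mouse 5, and the third 0.00 without both Rn45s-rich libraries.

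Acot3, the peroxisomal long-chain thioesterase, stood at 5.85, 8.89 and 25.2 CPM in low-iron livers, 7.07, 9.73 and 10.5 CPM in sufficient-iron livers and 15, 16.2 and 11.2 CPM in high-iron livers. High-iron livers were all above sufficient-iron ones, but the highest value of all was low-iron mouse 9. High over sufficient iron was 0.63 ± 0.42 on the log2 scale, high over low iron 0.07 ± 0.42 (edgeR adjusted p = 0.977) and low over sufficient iron 0.57 ± 0.42 (edgeR adjusted p = 0.573). The last 2 values rest on mouse 9: without it, high over low iron was 0.93 and low over sufficient iron -0.30. Without both Rn45s-rich libraries they were -0.13 and 0.90, and without low-iron mouse 1 alone low over sufficient iron was 0.89.

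Acot4, the peroxisomal enzyme for dicarboxylic acyl-CoA, stood at 17.6, 25.2 and 31.8 CPM in low-iron livers, 21.9, 27.9 and 24 CPM in sufficient-iron livers and 29.2, 24.3 and 23.7 CPM in high-iron livers. All 3 diets overlapped, and the differences were 0.06 ± 0.19 for high over sufficient iron, 0.04 ± 0.19 for high over low iron (edgeR adjusted p = 0.968) and 0.02 ± 0.19 for low over sufficient iron (edgeR adjusted p = 0.971). Without both Rn45s-rich libraries these were 0.11, -0.10 and 0.21. Acot12, the cytosolic acetyl-CoA hydrolase, stood at 69.6, 91.8 and 96.5 CPM in low-iron livers, 87.2, 102 and 102 CPM in sufficient-iron livers and 110, 112 and 112 CPM in high-iron livers. High-iron livers were all above the rest for Acot12, and close to each other, while low and sufficient iron overlapped. Its log2 differences were 0.20 ± 0.13 for high over sufficient iron, 0.37 ± 0.13 for high over low iron (edgeR adjusted p = 0.344) and -0.17 ± 0.13 for low over sufficient iron (edgeR adjusted p = 0.582). Without both Rn45s-rich libraries the last 2 were 0.24 and -0.04. High over sufficient iron was 0.13 without sufficient-iron mouse 2, and low over sufficient iron was -0.06 without low-iron mouse 1 and -0.27 without low-iron mouse 9.

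**Figure D2:**
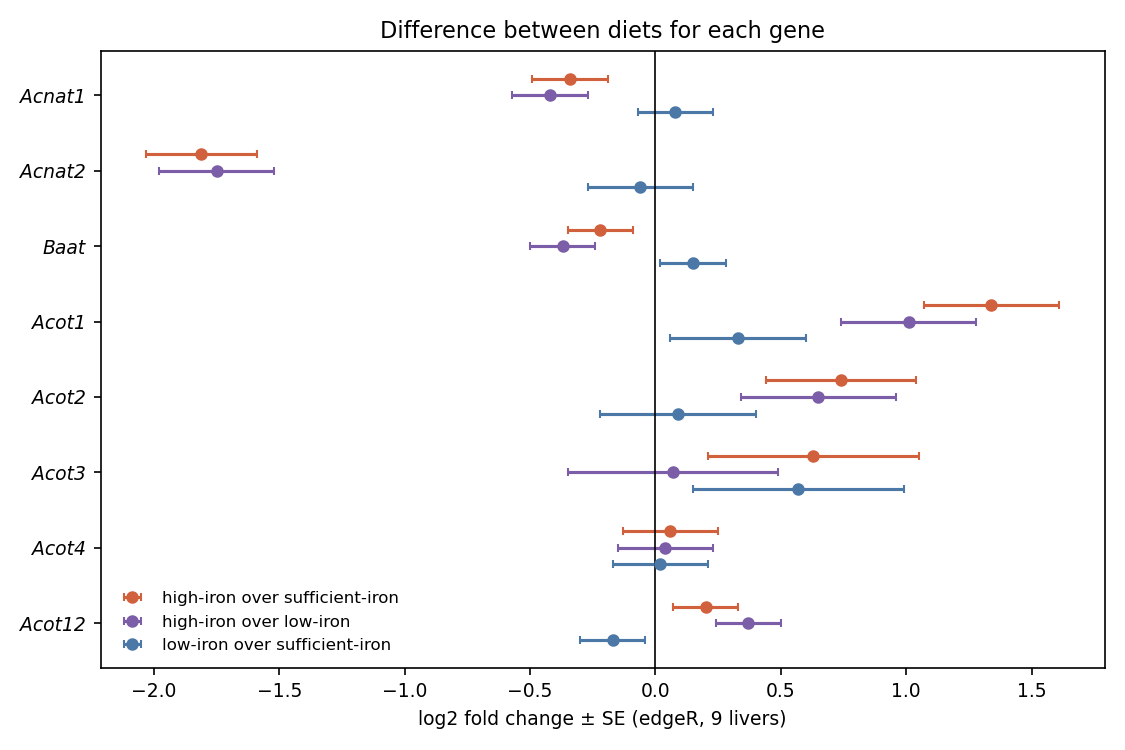
Difference between diets for each of the 8 genes (x axis, log2 fold change; y axis, genes); points are edgeR estimates from 9 livers and bars are ± SE, for high over sufficient iron, high over low iron and low over sufficient iron, top to bottom within a gene. The low over sufficient iron estimates lie between -0.17 and 0.57, and Acnat2 and Acot1 stand furthest out on either side where high iron is on top.

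Within the reads of the chromosome 12 cluster, Acot1 made up 26.8%, 36.8% and 22.5% in low-iron livers, 30.5%, 25.9% and 22.2% in sufficient-iron livers and 42%, 44.6% and 35.9% in high-iron livers. The high-iron shares overlapped with low-iron mouse 5. For Acot4 the shares were 40.4%, 40.5% and 37.4% in low-iron livers, 45.4%, 43.2% and 46% in sufficient-iron livers and 30%, 24.8% and 34.8% in high-iron livers, the last all below the others. A share moves with the other genes of the cluster, and the CPM of Acot4 itself overlapped between all diets (high over sufficient iron 0.06 ± 0.19). Wilson 95% intervals for Acot1 ran from 33.3% to 46.3% in high-iron livers and from 20.4% to 39.2% in the other livers. Acot1 reads per Acot4 read were 0.664, 0.91 and 0.602 in low-iron livers, 0.671, 0.6 and 0.483 in sufficient-iron livers and 1.4, 1.8 and 1.03 in high-iron livers, again with no overlap between high iron and the rest. Acot3 took 29.7% of the cluster's reads in low-iron mouse 9, against 13.4% to 20.2% elsewhere, and Acot2 took 8.36% to 19.5%. Set against each other, Acot1 reads per Acnat2 read were 0.711, 1.2 and 1.6 in low-iron livers, 0.752, 0.95 and 0.946 in sufficient-iron livers and 7.39, 10.2 and 5.78 in high-iron livers. This ratio too restates the Acnat2 reads that put the gene in the set, so it describes that choice only.

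**Figure D3:**
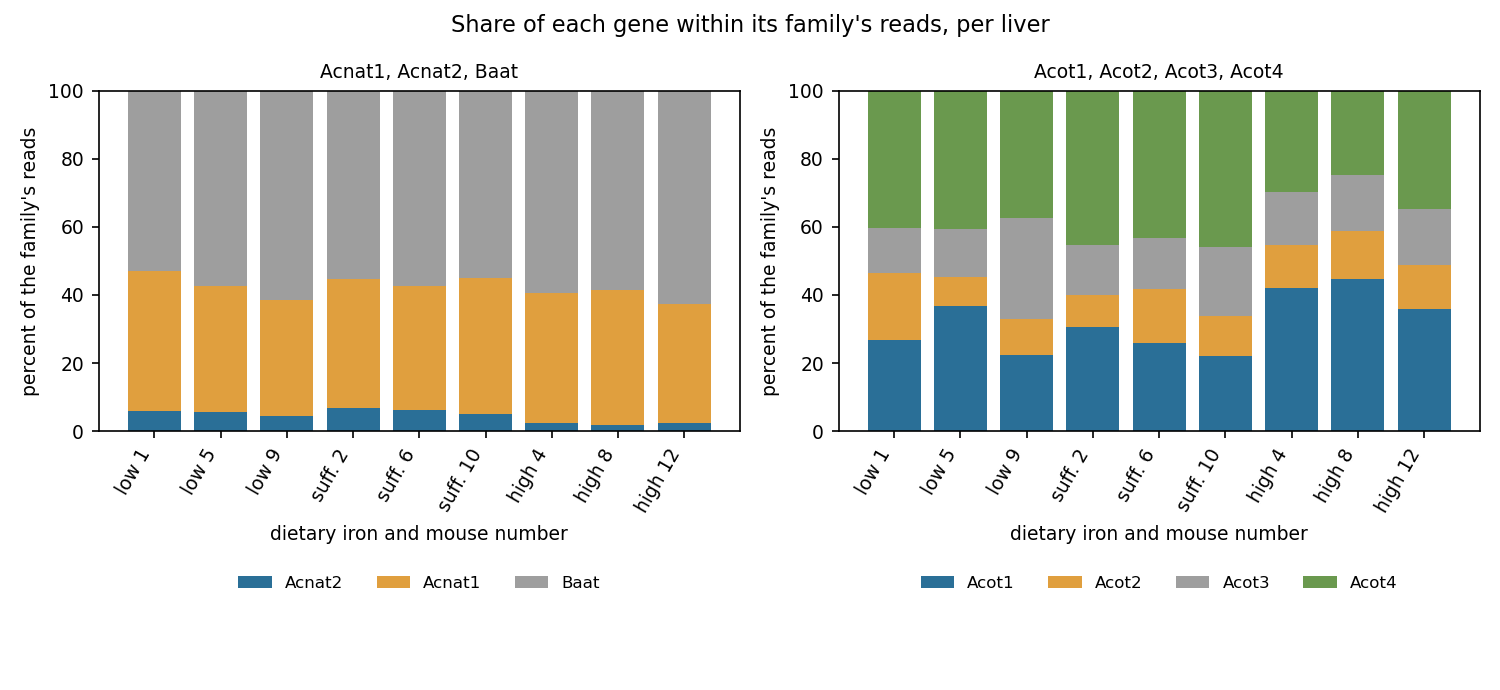
Share of each gene in its family's reads (y axis, percent, from 0) in each of the 9 livers (x axis, diet and mouse number), for Acnat1, Acnat2 and Baat on the left and Acot1 to Acot4 on the right. The Acnat2 band narrows to 1.84% to 2.41% in high-iron livers, and the Acot4 band is 24.8% to 34.8% there against 37.4% to 46% in the other livers. A band also depends on the other genes of its family, and the CPM of Acot4 overlapped between all diets.

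Counted over the set, 3 of 8 genes had all high-iron livers above all sufficient-iron livers (Acot1, Acot3 and Acot12), beside 8.99% of all tested genes, and 2 had them all below (Acnat1 and Acnat2), beside 8.85%. That contrast was used to choose the set, so these counts describe it only. The median log2 difference of the 8 was 0.13, against -0.01 over all tested genes. An unadjusted p under 0.05 was reached on the higher side by 2 genes (Acot1 and Acot2, beside 4.16%) and on the lower side by 2 (Acnat1 and Acnat2, beside 5.12%). For high over low iron, 2 genes had no overlap on the higher side (Acot1 and Acot12, beside 7.59%) and 2 on the lower side (Acnat2 and Baat, beside 8.15%), with a median of 0.06 against -0.01. Unadjusted p was under 0.05 there for 2 genes on the higher side (beside 4.22%) and 3 on the lower side (beside 5.44%). The high over low iron counts use the same high-iron livers whose low Acnat2 put that gene in the set. Acnat2 is also among the genes counted on the lower side, so these counts too describe the set only. For low over sufficient iron all 8 genes overlapped (8.81% of all genes had no overlap on the higher and 7.83% on the lower side), 0 passed the threshold, 0 had an unadjusted p under 0.05 beside 11.2% of all genes, and the median was 0.08 against -0.00. No gene at all passed edgeR's threshold in low over sufficient iron (0% of 13020), where 1458 were under 0.05 before adjustment. With DESeq2, 105 genes were called there, and with limma-voom 0. DESeq2 gave no adjusted p for 5 of the 8 (Acnat2, Acot1, Acot2, Acot3 and Acot4) and did not call the other 3.

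Levels are comparable between genes only per length, so the order of the set was taken from CPM per kb of main transcript. Bases shared with other genes were not taken out of these lengths. Shared windows made up 35.1% in Acnat1, 33.6% in Acot1 and 4.87% in Acot4, against 0% in Baat and Acot12. The places of Acnat1 and Baat, and those among Acnat2 and Acot1 to Acot4, are therefore uncertain. In sufficient-iron livers Baat (78.1 ± 7.11 CPM per kb) and Acnat1 (68.9 ± 3.07) came first and overlapped in range, followed by Acot12 at 31.7 ± 2.79. Next were Acnat2 at 9.9 ± 2.24 and Acot1 at 6.32 ± 1.15 CPM per kb, whose ranges met at 7.39. Acot4, Acot2 and Acot3 were last, with means of 3.97, 3.16 and 2.65 CPM per kb; Acot2 overlapped in range with both, while Acot4 (3.53 to 4.5) lay above Acot3 (2.06 to 3.06). High-iron livers kept Baat (66.8 ± 5.65), Acnat1 (54.4 ± 9.56) and Acot12 (36.4 ± 0.378) at the top. Acot1 took the fourth place there at 16 ± 4.58 CPM per kb, and Acnat2 the last at 2.81 ± 0.441. Dividing by all exon bases in place of the main transcript exchanged the places of Acot1 (3.67) and Acot4 (3.69) in sufficient-iron livers.

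Mice within a diet were ordered alike for some genes. Baat and Acot1 had the same order in every diet, from low to high mouse 1, 9 and 5 for low iron, 10, 2 and 6 for sufficient iron and 12, 4 and 8 for high iron, and the correlation of their deviations from the diet means was 0.96 over 9 livers. In low-iron livers Acot3, Acot4 and Acot12 all ran from mouse 1 over mouse 5 to mouse 9. Their within-diet correlations were 0.86 for Acot3 with Acot4, 0.86 for Acot4 with Acot12 and 0.79 for Acot3 with Acot12. For Acnat1 with Acnat2 it was 0.63. All points share the same 9 libraries and their scaling, and the rank correlation of the level with the Rn45s share of the library ran from -0.63 for Acot4 to 0.22 for Acnat1, and its part in these values was not tested.

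For each gene, the 3 genes most like it were the ones with the highest Pearson r of log2 CPM over the 9 livers among 11513 tested genes with at least 1 CPM on average. Such values are the top of a long list and describe likeness only. Nearest to Acnat2 were Slc17a1, a sodium and phosphate transporter gene (r = 0.98, rank correlation 0.90), Dpy19l1 (0.97 and 0.92) and the heparan sulfate proteoglycan gene Sdc1 (0.96 and 0.88). Taken as deviations from the diet means, their r with Acnat2 was 0.88, 0.87 and 0.83. Slc17a1 stood at 9.28, 9.47 and 8.95 CPM in low-iron livers, 9.29, 8.81 and 7.73 CPM in sufficient-iron livers and 5.05, 4.47 and 4.38 CPM in high-iron livers, with the same separation of high iron from the rest as Acnat2.

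Nearest to Acot1 were Creg1 (r = 0.96, rank correlation 0.93), Ehhadh (0.96 and 0.97), whose product carries out the hydratase and dehydrogenase steps of peroxisomal oxidation, and Cyp4a14 (0.95 and 0.95), a fatty acid omega-hydroxylase. Within diets their r was 0.92, 0.95 and 0.82. Ehhadh stood at 279, 452 and 373 CPM in low-iron livers, 316, 436 and 285 CPM in sufficient-iron livers and 1230, 1340 and 891 CPM in high-iron livers, and mouse 12 was the lowest of the high-iron mice, as for Acot1. Acnat1 was nearest to Ccdc25 (0.97), Ntn3 (0.94) and Adprh (0.94), and Baat to the glutamate dehydrogenase gene Glud1 (0.97), Nrbf2 (0.97) and Rnf139 (0.96). Acot2 was nearest to Kdsr (0.96), Atp9a (0.95) and Ugcg (0.93), Acot3 to Styx (0.92), Tfam (0.91) and Nat1 (0.91), Acot4 to Eda (0.93), Gng12 (0.92) and Neo1 (0.90), and Acot12 to Sri (0.97) and Pex11a (0.96). Pex11a, a peroxisome division gene, stood at 17.2, 30 and 32.3 CPM in low-iron livers, 34.3, 43.2 and 40.6 CPM in sufficient-iron livers and 60.5, 55.9 and 49.7 CPM in high-iron livers.

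**Figure D4:**
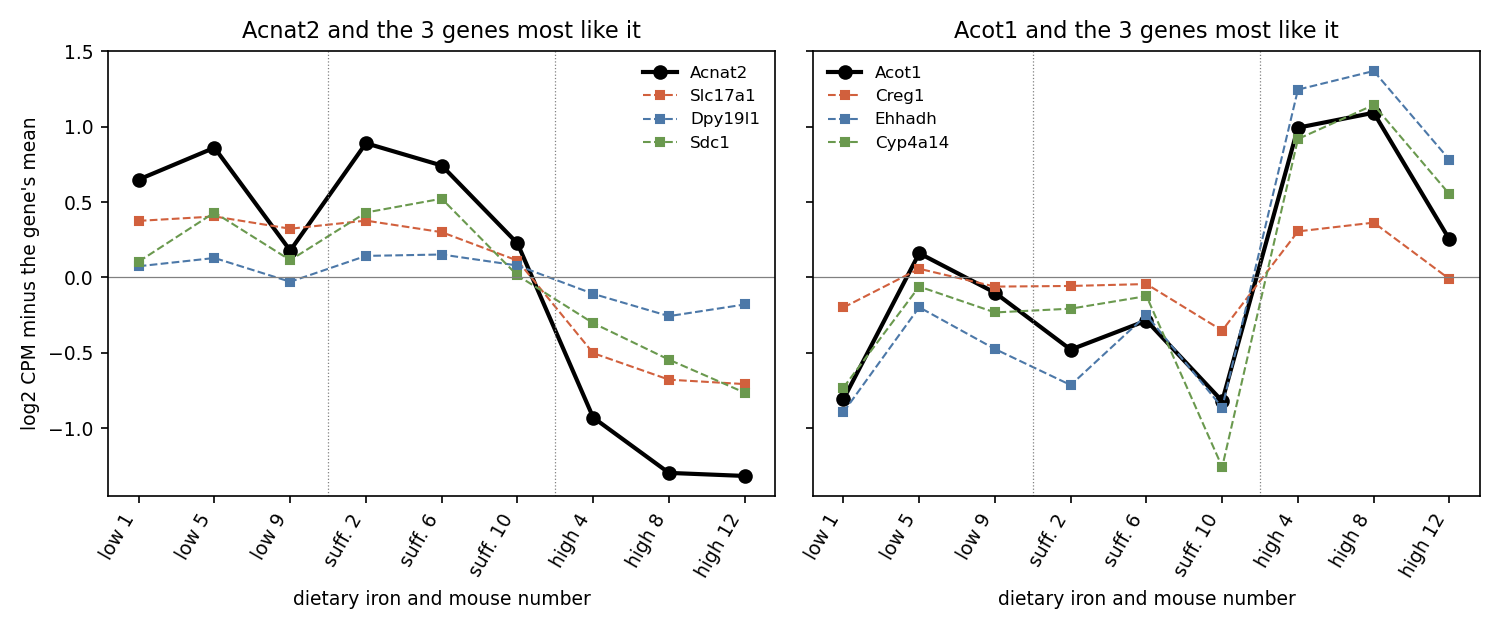
Level of Acnat2 (left) and Acot1 (right) with the 3 genes most like each (y axis, log2 CPM minus the gene's mean over 9 livers; x axis, diet and mouse number); each line is 1 gene. Slc17a1 and Sdc1 lie below their means in high-iron livers along with Acnat2, while Ehhadh and Cyp4a14 lie above theirs along with Acot1.

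Around these enzymes, 110 of 119 genes listed in 8 groups were tested. For high over sufficient iron 3 rose and 0 fell (background 0.0998% and 0.115%), for high over low iron 1 rose and 1 fell (background 0.161% and 0.346%), and for low over sufficient iron 0 passed. The groups were PPAR-alpha targets, other thioesterases, glycine N-acyltransferases, bile acid ligation and side-chain genes, taurine and cysteine genes, acyl-CoA synthetases, CoA synthesis and breakdown genes, and nuclear receptors.

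All 3 genes that rose for high over sufficient iron were among 29 tested PPAR-alpha targets, a group partly shaped by what was known of these data. Ehhadh averaged 1150 ± 234 CPM in high-iron livers and 346 ± 79.8 CPM in sufficient-iron livers, 1.74 ± 0.23 on the log2 scale (edgeR adjusted p = 0.0265). Cyp4a10, an omega-hydroxylase, averaged 470 ± 107 and 175 ± 19.1 CPM in high-iron and sufficient-iron livers (1.43 ± 0.17, edgeR adjusted p = 0.0194), and Acaa1b, a peroxisomal thiolase, 1200 ± 151 and 648 ± 31.7 CPM (0.89 ± 0.14, edgeR adjusted p = 0.0341). Low-iron livers were also all above sufficient-iron ones for Cyp4a10 (312 ± 27.7 CPM, 0.84 ± 0.17) and Acaa1b (875 ± 117 CPM, 0.43 ± 0.14), with an edgeR adjusted p of 0.446 for each. For Ehhadh, low and sufficient iron overlapped (0.09 ± 0.22). The group had 14 of 29 genes with all high-iron livers above the sufficient-iron ones, beside 8.99% of all genes, and a median of 0.29 against -0.01. For low-iron livers above the sufficient-iron ones it was 8 of 29, beside 8.81%, with a median of 0.13 against -0.00. Each of these 3 calls was lost when high-iron mouse 4 (adjusted p = 0.0987 for Ehhadh, 0.0924 for Cyp4a10 and 0.131 for Acaa1b), high-iron mouse 8 (0.17, 0.154 and 0.222) or sufficient-iron mouse 10 (0.0825, 0.0691 and 0.122) was left out. Leaving out sufficient-iron mouse 2 also ended the calls of Ehhadh (0.0767) and Acaa1b (0.105), and that of Acaa1b was further lost without low-iron mouse 9 (0.0517), sufficient-iron mouse 6 (0.0754) or high-iron mouse 12 (0.101). For high over low iron Ehhadh alone passed (1.65 ± 0.23, edgeR adjusted p = 0.0172; 368 ± 86.8 CPM in low-iron livers), a call lost without low-iron mouse 9 (0.0804), high-iron mouse 4 (0.0886) or high-iron mouse 8 (0.0855), and the median was 0.16. Ppara itself, the receptor gene, had 324 ± 38.5 CPM in high-iron livers and 285 ± 111 CPM in sufficient-iron livers (0.18 ± 0.26, edgeR adjusted p = 0.822), and 0 of 14 nuclear receptor genes passed in any comparison.

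The steps that feed Baat are the activation of bile acids and the supply of taurine. Slc27a5, the bile acid-CoA ligase of liver, averaged 416 ± 20.5 CPM in high-iron livers and 426 ± 41.9 CPM in sufficient-iron livers (-0.04 ± 0.11, edgeR adjusted p = 0.927), and 583 ± 34.7 CPM in low-iron livers (high over low iron -0.49 ± 0.11, edgeR adjusted p = 0.105). None of the 9 genes of that group passed in any comparison. Of 8 tested taurine and cysteine genes, 0 of 8 had a positive difference for high over sufficient iron and the median was -0.28, with 0 past the threshold. For high over low iron the median was -0.43 and 1 gene fell: Bhmt, which methylates homocysteine to methionine with betaine, averaged 1390 ± 173 CPM in high-iron livers and 3560 ± 453 CPM in low-iron livers (-1.36 ± 0.23, edgeR adjusted p = 0.0341). That call was lost when any 1 of these 6 livers was left out, with adjusted p from 0.0563 without low-iron mouse 1 to 0.161 without high-iron mouse 8. Cbs, the first enzyme of transsulfuration, had -0.66 ± 0.13 (edgeR adjusted p = 0.0639), and Slc6a13, a transporter of GABA and taurine, -0.61 ± 0.13 (edgeR adjusted p = 0.072). Csad, the decarboxylase of taurine synthesis, had a positive difference of 0.55 ± 0.28 (edgeR adjusted p = 0.59).

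Other thioesterases did not pass in any comparison (0 of 12 tested, medians 0.08 for high over sufficient iron and -0.09 for high over low iron). Their lowest p was that of Acot11, a long-chain thioesterase with a lipid-binding domain, at 3 ± 0.318 CPM in high-iron livers and 6.47 ± 2.48 CPM in sufficient-iron livers (-1.11 ± 0.30, edgeR adjusted p = 0.245), with 6.79 ± 1.7 CPM in low-iron livers. Acot5, the next gene of the chromosome 12 cluster, had at most 1 read in a library, and Acot10 had 0. Glycine N-acyltransferases, which conjugate small acids with glycine in mitochondria, had 0 of 3 past the threshold. Among them Keg1 averaged 127 ± 9.28 CPM in high-iron livers and 76.9 ± 24.5 CPM in sufficient-iron livers (0.72 ± 0.20, edgeR adjusted p = 0.245), and Glyat 165 ± 10.7 CPM in high-iron livers and 219 ± 11.5 CPM in low-iron livers (-0.41 ± 0.11, edgeR adjusted p = 0.154). Keg1 in low-iron livers was at 117 ± 15.6 CPM (low over sufficient iron 0.61 ± 0.20), and Glyat in sufficient-iron livers at 175 ± 12.7 CPM.

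The makers of the thioesterases' substrate, the acyl-CoA synthetases, had 0 of 18 past the threshold in any comparison, with medians of 0.14 for high over sufficient iron and 0.04 for high over low iron. Slc27a1, a fatty acid transporter with synthetase activity, had 7.55 ± 1.91 CPM in high-iron livers and 3.17 ± 0.819 CPM in sufficient-iron livers (1.25 ± 0.24, edgeR adjusted p = 0.081). Its low-iron livers, at 4.4 ± 0.51 CPM, were also all above the sufficient-iron ones (0.46 ± 0.24). Of 17 CoA synthesis and breakdown genes, 0 passed in any comparison. Vnn1, a pantetheinase that breaks down a product of CoA, had 143 ± 8.24 CPM in high-iron livers and 80.9 ± 3.94 CPM in sufficient-iron livers (0.82 ± 0.14, edgeR adjusted p = 0.054). Here too low-iron livers, at 107 ± 21.6 CPM, were all above the sufficient-iron ones (0.40 ± 0.14, edgeR adjusted p = 0.446).

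Markers of other cells were read beside the 8 genes. Summed levels of Kupffer cell markers were 120 to 280 CPM in low-iron, 274 to 442 in sufficient-iron and 235 to 295 in high-iron livers, with 0 of 10 past the threshold in any comparison. All 10 had a negative difference for high over sufficient (median -0.48) and low over sufficient iron (-0.72), and all 10 a positive one for high over low iron (0.21). Monocyte and neutrophil markers summed to 16.7 to 33.1 CPM in low-iron, 36 to 70.6 in sufficient-iron and 33.9 to 40.8 in high-iron livers, with 0 of 6 positive for high over sufficient (median -0.65) and low over sufficient iron (-1.02) and 4 of 6 for high over low iron (0.36). Cholangiocyte markers summed to 28 to 36.6 CPM in low-iron, 40.3 to 73 in sufficient-iron and 33.3 to 71.4 in high-iron livers, with 5 of 6 positive for high over sufficient (0.17), 1 of 6 for low over sufficient (-0.67) and 6 of 6 for high over low iron (0.85). Stellate cell markers summed to 156 to 211, 161 to 271 and 186 to 234 CPM in low-iron, sufficient-iron and high-iron livers, with 2 of 7, 0 of 7 and 7 of 7 positive for high over sufficient, low over sufficient and high over low iron (medians -0.10, -0.27 and 0.15). Endothelial markers summed to 138 to 232, 209 to 257 and 187 to 273 CPM in the same order of diets, with 2 of 7, 0 of 7 and 5 of 7 positive (-0.11, -0.32 and 0.27). None of these markers passed the threshold, and lymphocyte markers summed to 2.52 to 5.13 CPM over all diets. Adipocyte markers summed to 37.6 to 51.8 CPM in low-iron, 34.7 to 115 in sufficient-iron and 87.1 to 104 in high-iron livers, and 1 of 5 (Lpl) rose for high over sufficient and high over low iron. Plin1 and Lep of that list had 0 reads in all libraries. Adipoq had reads only in low-iron mouse 9, sufficient-iron mouse 10 and high-iron mouse 8, and was not tested. The erythroid list summed to 87.2 to 126 CPM in low-iron, 62.4 to 81.7 in sufficient-iron and 28.2 to 38.4 in high-iron livers. Alas2 alone of it could be tested and fell for high over sufficient and high over low iron. Of the 8 genes listed, 6 were in the files, and the globin genes among them were at 0. Reads aligned to more than 1 place were set aside, so this carries no statement about globin RNA in the livers. Kidney tubule markers, read because Slc17a1 is also known from kidney, summed to 0.57 to 2.23 CPM, with Umod, Kap and Slc22a6 at 0 in all libraries. Hepatocyte markers had 2 of 5 positive differences for high over sufficient iron (median -0.05) and 5 of 5 for low over sufficient iron (0.33). For high over low iron 5 of 5 were negative (-0.36), and 0 passed the threshold in any comparison. The part of any of these markers in the values of the 8 genes was not tested.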

How the data were processed

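RNA was isolated on RNeasy columns and libraries were made with the TruSeq RNA kit, per the labels' protocols. The 9 deposited files hold raw read counts per gene symbol, made by the authors. FastQC is listed in the submitters' processing notes, as are mm10 and mm9, without a role for either build. Which aligner, counter and strand setting were used is not given in the sources used. Read categories that name no gene (13.4% to 25.9% of unique reads without a feature, 0.477% to 0.917% ambiguous) stayed out of library sizes and tests. Counts were filtered with filterByExpr, scaled by TMM and fitted in edgeR 4.0.16 (R 4.3.3, robust quasi-likelihood, no covariate), and log2 CPM used a prior count of 2. limma 3.58.1 and DESeq2 1.42.0 served as alternatives. The fit was also run on counts simulated from its own estimated means and spread. Such a run cannot show how well the fit suits these livers. The edgeR p-values weigh a difference between diet means against the spread between mice, estimated over all 9 libraries with information shared across genes. Intervals on shares (Wilson, 95%) cover counting error only.

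The 8 genes, the pathway and marker lists and the tests were chosen with earlier results of these data known. Text names all 8 genes, from each pathway list at most 4 genes with the lowest p in any comparison, and the 3 genes most like each of the 8; some genes that this rule names are not reported here. Ppara, Acot5, Acot10, Plin1, Lep, Lpl, Alas2 and the other marker genes named were chosen after their values were seen. No replicate numbers are shared between diets, and no label gives a batch.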

Additional observations from a re-analysis of the deposited data

How the results depend on the processing

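The number of the 8 genes past the threshold was 1 for high over sufficient iron, and it was 2 with DESeq2, with limma-voom quality weights and at a threshold of 0.1; single livers left out gave 0 to 2, with 0 without high-iron mouse 4, 8 or 12 and 2 without low-iron mouse 1. Without the 2 Rn45s-rich libraries, an alternative chosen after seeing the data, it was 1, but Acot1 (1.55) in place of Acnat2 (-1.75). For high over low iron the number was 1, with 2 under DESeq2, 0 without the 2 Rn45s-rich libraries and 0 to 1 with single livers left out. For low over sufficient iron it was 0 in every alternative run, although DESeq2 gave no adjusted p for 5 of the 8 there. Acnat2 kept a log2 difference of -1.99 to -1.67 for high over sufficient and -1.92 to -1.51 for high over low iron over all alternatives run. These runs reuse the livers that put Acnat2 in the set, so they describe its dependence on processing and are no independent test. Over all genes, high over sufficient iron gave 28 calls, against 218 with DESeq2, 88 with quality weights, 66 at a threshold of 0.1, 45 with no filter and 0 to 56 with single livers left out. High over low iron gave 66, against 365, 366 and 168 under the first 3 of these and 0 to 112, and low over sufficient iron gave 0, against 105 with DESeq2 and 0 to 1.

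The pathway and marker genes that passed were run through the same alternatives after seeing the data, and the calls of Lpl and Alas2 were lost in high over sufficient and in high over low iron without high-iron mouse 4 or 8, among others. Signs turned for uncalled differences alone. Quality weights turned Acnat1 for low over sufficient iron (-0.02) and Acot3 (-0.24) and Acot4 (-0.09) for high over low iron, and leaving out the 2 Rn45s-rich libraries turned Acot3 (-0.13) and Acot4 (-0.10) there. Single livers left out gave -0.04 to 0.16 for Acot4, high over sufficient iron. For low over sufficient iron they gave -0.01 to 0.18 for Acnat1, -0.24 to 0.11 for Acnat2, -0.13 to 0.48 for Acot2, -0.30 to 0.89 for Acot3 and -0.20 to 0.19 for Acot4. For high over low iron they gave -0.26 to 0.93 for Acot3 and -0.14 to 0.26 for Acot4. The cause of these turns was not tested. No paired analysis was run, because no mouse number is shared between diets and no label states a pairing. Whether mice of different diets were handled together cannot be told from the labels. Acnat2 rests on 79 to 165 reads per high-iron liver, which limits its precision.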
